A study of Drosophila melanogaster with 6 samples.

Results

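The genes described here encode the calcium channels, pumps and exchangers SERCA, RyR, Itpr, Calx, zyd, Ca-alpha1D, Ca-beta and cac of Drosophila melanogaster. A probe set belonged to them if its single gene symbol in the platform annotation was one of these 8 names. The rule found all 8 genes among the 11982 genes with a single symbol, and 13 probe sets in all. SERCA and Ca-beta had 3 probe sets each, cac had 2, and RyR, Itpr, Calx, zyd and Ca-alpha1D had 1 each. No probe set with several symbols named any of them.

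RNA was taken from heart/nephrocyte complexes of adult female flies, in which the heart tube lies beside filtering cells called nephrocytes. In 1 group, of 3 arrays, the food held 0.1 M glucosamine, an amino sugar, and in the other, also of 3 arrays, it held 1.0 M sucrose. Both groups ate their food for 21 days, and the labels give no strain or genotype and no arm on plain food. They mention 30 females but not how these were shared out over the arrays. The p-values therefore measure the spread between arrays only, and that spread may be technical.

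Contraction of fly heart muscle depends on calcium that enters through voltage-gated channels of the cell surface and is released from the sarcoplasmic reticulum. SERCA pumps it back into that store, while exchangers such as Calx carry it out of the cell in return for sodium. Many other cells release calcium from the same store through the inositol trisphosphate receptor, and neurons use voltage-gated channels to trigger transmitter release.

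The values are single-channel intensities, 1 for each probe set and array, and probes of different genes differ in brightness, so levels were compared between arrays and not between genes. The array median was between 14.8 and 17.4 and the upper quartile between 222 and 237. Precision is limited by the number of arrays. Among markers of pericardial nephrocytes 6 of 7 tested probe sets were lower after glucosamine, and the heart regulator gene Hand was lower as well, with none of the other 5 cardiac probe sets passing. In bulk tissue, fewer cells of a type and less RNA per cell cannot be told apart. The germline gene osk stood out on sucrose replicate 1, with an intensity of its brightest probe set of 6355 against 942 on sucrose replicate 2 and 224 to 340 on the other 4 arrays. Of the RNA quality controls, the 5′ minus 3′ signal on the log2 scale was lower in every glucosamine array for eIF-4a (by a mean of −0.74), GAPDH (−0.15) and 18S rRNA (−0.12), and the groups overlapped for the other 3 pairs, 1 of which, of Act5C, lay the other way (0.60). The part of these values in the differences below was not tested.

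Of the 8 genes, the calcium channel gene cac was higher in glucosamine-fed than in sucrose-fed complexes by 1 of its probe sets. Its mean intensity was 5.02 times that on sucrose, where it was dim. The exchanger gene zyd was lower, at a mean intensity of 20.5 against 38.3 and only just past the threshold. The other 11 probe sets, of the pump SERCA, the release channels RyR and Itpr, the exchanger Calx, the channel subunits Ca-alpha1D and Ca-beta and a second one of cac, did not pass the test. All 13 probe sets exceeded the filter on dim values and were tested with limma, with Benjamini-Hochberg adjustment over 11021 probe sets and a threshold of 0.05. The 2 of 13 that passed stand against 17.8% of everything tested, 9.52% in the higher and 8.28% in the lower direction, so the share of calcium probe sets called was near the background. The median difference was −0.05 over the 13 probe sets and −0.03 over all tested, on the scale log2(intensity + 16), and the median of the absolute differences was 0.16 against 0.33. The intensities of the 2 diets did not overlap for 4 of the 13, where 38.2% of all tested probe sets had no overlap.

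**Figure D1:**
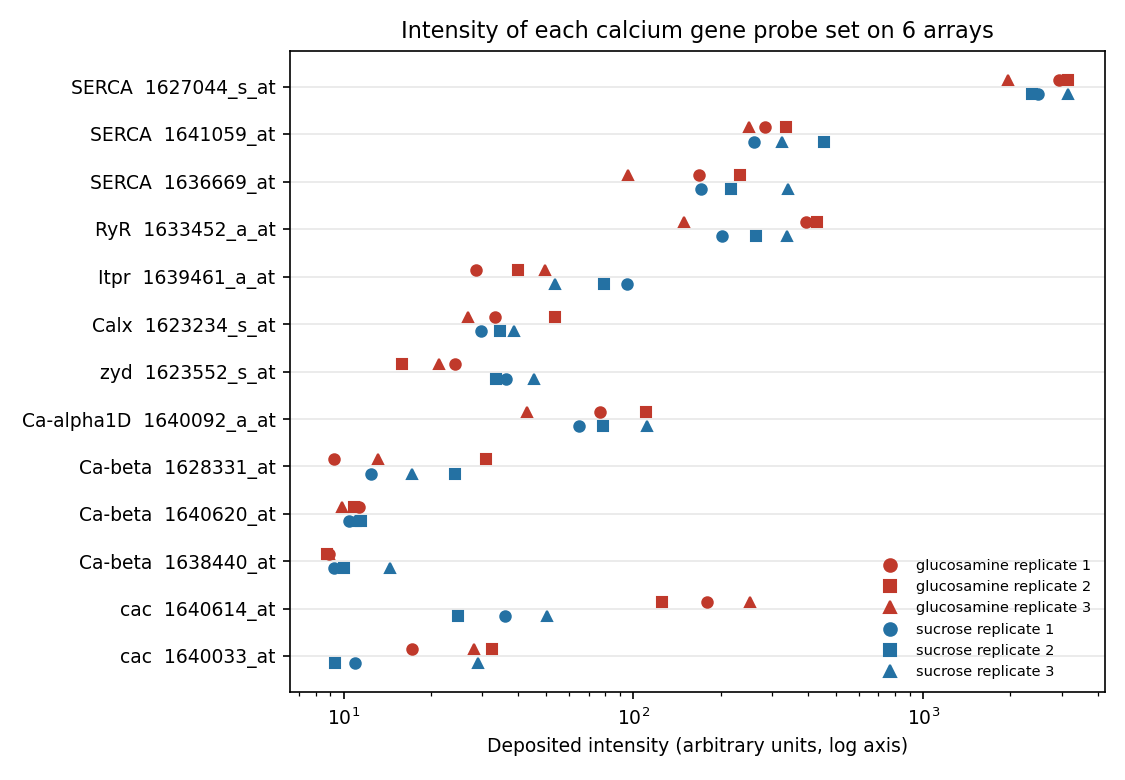
Intensity of the 13 probe sets on each of the 6 arrays, on a log axis in arbitrary units, with red for glucosamine and blue for sucrose and a symbol for each replicate. The cac probe set 1640614_at has 125.9 to 252.7 in the glucosamine arrays, all above the sucrose arrays, and most other probe sets overlap between the diets.

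Among the voltage-gated channels, cac encodes the pore-forming subunit of the channel that drives transmitter release at fly synapses. Its probe set 1640614_at had intensities of 178.8, 125.9 and 252.7 in the glucosamine arrays and 35.9, 24.7 and 50.3 in the sucrose arrays. The dimmest glucosamine array was thus brighter than the brightest sucrose array. The means were 186 ± 63.7 and 37.0 ± 12.8 (SD, n = 3 each), a ratio of 5.02. The sucrose values were dim, so the size of this ratio is uncertain. With 16 added to every intensity, the fold in the limma fit was 3.76. On the scale log2(intensity + 16), which understates changes of dim probe sets, cac rose by 1.91 ± 0.28 (SE; limma adjusted p = 0.00867), with a 95% interval of 1.23 to 2.59. Of the 1049 probe sets that passed in the higher direction, it ranked 155 by size. It passed in all 6 fits that lacked 1 array, with differences of 1.68 to 2.14, and was 1.91 without the sucrose array richest in osk. Without both glucosamine replicate 3 and sucrose replicate 1 it was 1.68, with a limma adjusted p of 0.0715, in a fit where 145 of all probe sets passed in the higher direction in place of 1049.

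The other cac probe set, 1640033_at, did not pass. Its intensities were 17.3, 32.5 and 28.1 after glucosamine and 10.9, 9.31 and 29.0 after sucrose. Sucrose replicate 3 lay inside the glucosamine range, while the other sucrose arrays lay below it. The difference was 0.41 ± 0.27 (SE; limma adjusted p = 0.345), with a 95% interval of −0.23 to 1.04. Both probe sets leaned the same way. When their log2 values were averaged to a single value for the gene, cac was higher by 1.16 (limma adjusted p = 0.0203).

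Since cac is best known from neurons, neuronal markers were examined beside it. None of 8 tested neuronal probe sets passed limma's test, 0 had an unadjusted p under 0.05, and their median difference was −0.01. Their summed intensity, over all 14 probe sets, was 598 to 968 in the glucosamine and 676 to 875 in the sucrose arrays. The pan-neuronal gene elav was detected at 213 to 457 on all arrays. Not all of the presynaptic genes among these markers lay above the array medians. The cpx probe sets 1639609_s_at and 1636880_s_at had 194.1 to 377.9 and 80.47 to 122.8, and nSyb had 27.03 to 52.07. In contrast, brp and VGlut did not exceed 7.60 on any array, which is below every array's median. The remaining neuronal genes on the array, para, fne, Rdl and ChAT, were also dim, at 8.54 to 18.3.

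Ca-alpha1D encodes the pore-forming subunit of the fly L-type channel, the type through which calcium enters muscle. Its intensities were 76.4, 110.7 and 43.0 after glucosamine and 64.9, 78.5 and 111.0 after sucrose. Glucosamine replicate 3 lay below every sucrose array, and the other glucosamine arrays lay within the sucrose range. The difference was −0.16 ± 0.31 (SE; limma adjusted p = 0.769), and the interval of −0.91 to 0.59 leaves room for a change in either direction. Without glucosamine replicate 3 it was 0.13 and without sucrose replicate 3 it was 0.02, so its sign rested on single arrays.

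Ca-beta encodes the accessory beta subunit that brings such channels to the surface, and its 3 probe sets were all dim. Probe set 1628331_at had 9.24, 30.9 and 13.1 after glucosamine and 12.4, 24.2 and 17.2 after sucrose. The other 2 lay between 8.77 and 14.4 on every array, below the median of all probe sets, which was 14.8 or more on each array. Such values carry little information on change. The differences were −0.05, −0.02 and −0.13 on the log2 scale, with limma adjusted p values of 0.542 to 0.948. For 1638440_at the intensities of the diets did not overlap, at 8.77 to 8.90 against 9.27 to 14.4.

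Among the store proteins, SERCA encodes the ATP-driven pump that returns calcium to the sarcoplasmic reticulum. Its brightest probe set, 1627044_s_at, had 2936, 3152 and 1968 after glucosamine and 2481, 2382 and 3147 after sucrose. The means were 2685 ± 631 and 2670 ± 416 (SD, n = 3 each), closer than the arrays within either diet. The difference was −0.01 ± 0.22 (SE; limma adjusted p = 0.984), and its 95% interval of −0.54 to 0.52 bounds the change on this scale in both directions. It was 0.04 under quantile normalization and 0.09 under cyclic loess, so the data give it no direction.

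The dimmer SERCA probe sets both leaned lower. Probe set 1641059_at had 283.5, 337.1 and 250.5 after glucosamine and 260.0, 454.1 and 325.0 after sucrose. Probe set 1636669_at had 168.0, 232.7 and 96.1 against 171.5, 216.7 and 341.7. In both, the diets overlapped on several arrays. The differences were −0.22 ± 0.23 and −0.54 ± 0.36 (SE), with limma adjusted p values of 0.558 and 0.352, and neither passed under any alternative.

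RyR encodes the ryanodine receptor, the release channel of the muscle store. Its intensities were 392.8, 430.9 and 149.4 after glucosamine and 201.9, 264.4 and 339.4 after sucrose. In the glucosamine group, 2 arrays lay above all sucrose arrays and the third below them. The difference was 0.16 ± 0.41 (SE; limma adjusted p = 0.831), within the spread of the arrays. Without glucosamine replicate 3 it was 0.62 (adjusted p = 0.159), while it was −0.04, −0.10 and −0.02 without glucosamine replicate 1, glucosamine replicate 2 and sucrose replicate 1.

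Itpr encodes the inositol trisphosphate receptor, which releases stored calcium after receptor signalling. Its intensities were 28.6, 40.03 and 49.6 after glucosamine and 95.1, 79.0 and 53.7 after sucrose. All glucosamine arrays lay below all sucrose arrays, with a gap that was narrow beside the range within each diet. The difference was −0.72 ± 0.23 (SE), with a 95% interval of −1.27 to −0.17, but the limma adjusted p of 0.0766 missed the threshold. It stayed between −0.92 and −0.43 over 19 alternatives, with adjusted p values of 0.0519 to 0.211 and none past the threshold. Without sucrose replicate 1, the array richest in osk, it was −0.57. Sucrose replicate 2 also had raised osk, at 942, and the sucrose arrays had the same order in Itpr as in osk. The part of the osk signal in the Itpr difference was not tested.

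Of the exchangers, Calx encodes the sodium/calcium exchanger of the cell surface. Its intensities were 33.4, 53.6 and 26.8 after glucosamine and 29.7, 34.5 and 38.8 after sucrose. The sucrose range lay wholly within the glucosamine range. The difference was 0.07 ± 0.21 (SE; limma adjusted p = 0.850), and it was −0.13 without glucosamine replicate 2.

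The gene zyd encodes an exchanger of the potassium-dependent sodium/calcium family, known in flies for its role in cortex glia. Its intensities were 24.3, 15.9 and 21.4 after glucosamine and 36.2, 33.5 and 45.3 after sucrose. Every glucosamine array was below every sucrose array, though all values were dim. The means were 20.5 ± 4.25 and 38.3 ± 6.18 (SD, n = 3 each), a ratio of 1.87 in favour of sucrose. On the log2 scale zyd fell by 0.57 ± 0.15 (SE; limma adjusted p = 0.0480), just inside the threshold. With any 1 of the 6 arrays left out the call was lost, with differences of −0.65 to −0.48 and adjusted p values of 0.0805 to 0.114. It passed in 3 of 18 alternatives and kept its sign in all 18. Of 5 tested glial probe sets 1 passed, in the higher direction, where 9.52% of everything tested did. It was loco, a regulator of G protein signalling, which rose by 0.76 (limma adjusted p = 0.0492), also just inside the threshold. The summed glial intensity was 4788 to 6062 after glucosamine and 4735 to 5858 after sucrose. Most of it came from Gs2, at 3325 to 4361 and 3264 to 4719, so the sum says little about the other glial genes. The glial transcription factor gene repo differed by 0.07 (limma adjusted p = 0.871), and moody, a gene of the blood-brain barrier glia, by −0.37 (limma adjusted p = 0.231). The cortex glia marker wrapper was too dim to be tested, at 6.35 to 10.1, and the astrocyte marker alrm did not exceed 8.52 on any array.

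**Figure D2:**
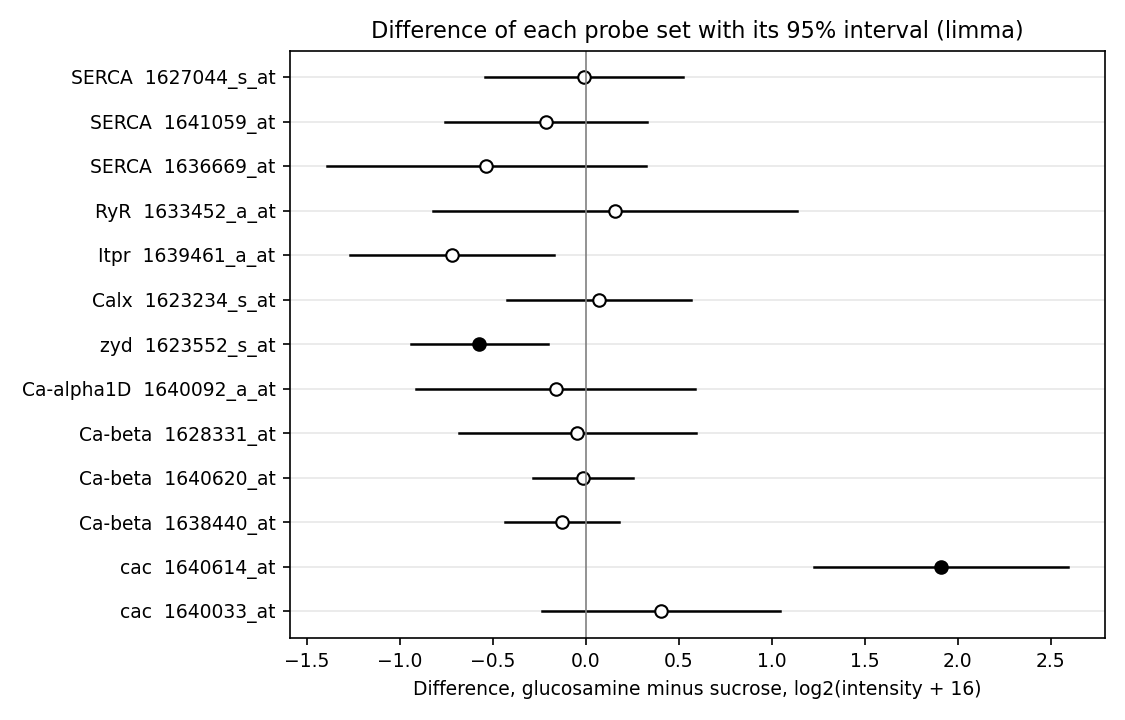
Difference of each of the 13 probe sets, as glucosamine minus sucrose of log2(intensity + 16), with bars for the 95% interval of the limma fit and filled points where the adjusted p was under 0.05. Only cac 1640614_at (1.91) and zyd (−0.57) are filled, and the interval of Itpr (−1.27 to −0.17) lies below 0 without passing after adjustment.

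How far probe sets of the same gene disagreed was measured from the log2 ratio of their intensities on each array (the difference of their log2(intensity + 16) values), which was then compared between diets. There were 7 such pairs, and 3 arrays against 3 cannot give a two-sided exact permutation p below 0.1, so no pair could pass. For cac the log2 ratio of 1640614_at to 1640033_at was 2.55, 1.55 and 2.61 in the glucosamine arrays and 0.95, 0.69 and 0.56 in the sucrose arrays. The ratios of the diets did not overlap. The difference between the diets was 1.50 (exact permutation p = 0.1, the smallest possible; 0.7 adjusted over the 7 pairs), and it was 1.32 to 1.85 without any 1 array. On sucrose replicates 1 and 2 the dimmer probe set, at 10.9 and 9.31, was below every array's median, where values carry little information, so these ratios compare a measured probe set with one near background. For SERCA the ratio of 1627044_s_at to 1636669_at was 4.004, 3.67 and 4.15 against 3.74, 3.37 and 3.14. These overlapped on 1 array of each diet, with a difference of 0.53 (exact permutation p = 0.2; 0.7 adjusted). The other 5 pairs, 2 of SERCA and 3 of Ca-beta, differed by −0.03 to 0.32 (exact permutation p of 0.3 to 1.0), and all 5 overlapped.

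**Figure D3:**
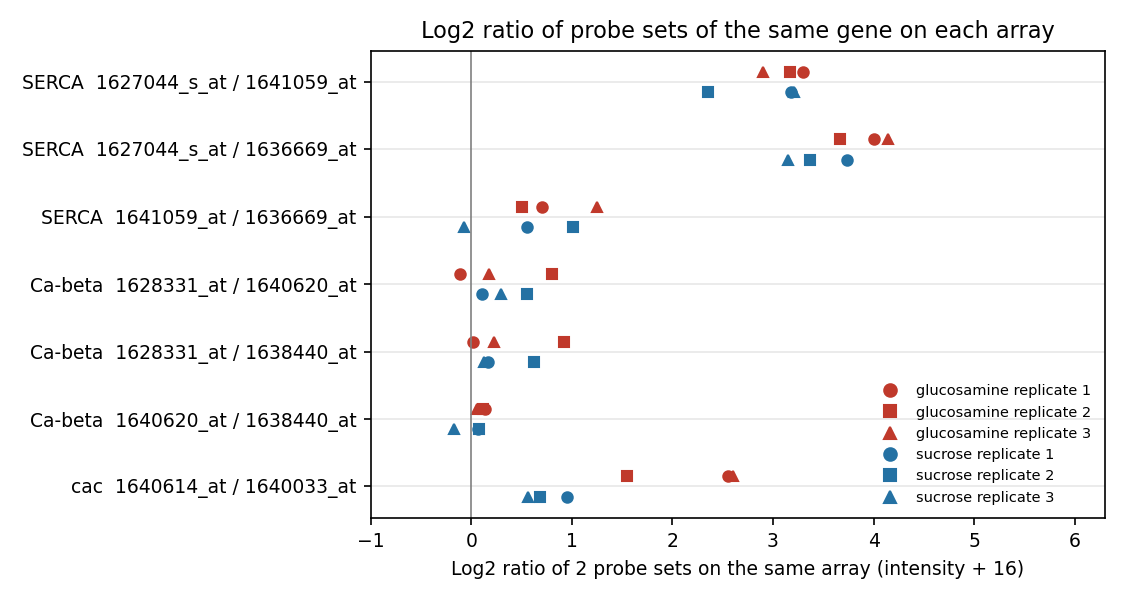
Log2 ratio of 2 probe sets of the same gene on each array, on the scale log2(intensity + 16), for the 7 pairs, with red for glucosamine and blue for sucrose and a symbol for each replicate. Only the cac pair separates the diets, at 1.55 to 2.61 against 0.56 to 0.95.

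Of the 13 calcium probe sets, 4 had their arrays in the same order within each diet. RyR, Ca-alpha1D, Calx and SERCA 1636669_at were all lowest on glucosamine replicate 3 and highest on glucosamine replicate 2. All 4 were also lowest on sucrose replicate 1 and highest on sucrose replicate 3. This order of all 6 arrays within their diets, which was noticed in the values, was found for 3.36% of all tested probe sets. Because the order was taken from these same 4 probe sets, setting them against that share is not a test. The other 9, including the brighter SERCA probe sets, both of cac and all 3 of Ca-beta, had other orders. The summed intensity of the genes listed as markers of body wall and skeletal muscle had the order of the 4. It was 9642, 13517 and 6047 in glucosamine replicates 1, 2 and 3 and 6472, 7645 and 9387 in sucrose replicates 1, 2 and 3. The order was not particular to muscle. The summed neuronal markers had it too, at 886, 968 and 598 in the same glucosamine arrays and 676, 719 and 875 in the sucrose arrays. The neuronal sum came mostly from elav and cpx. The sums of the cardiac and hemocyte markers did not have the order. The cardiac sum came mostly from Hand, at 7976 to 9942 after glucosamine and 12941 to 16538 after sucrose. It therefore says little about the other cardiac genes. Of 8 tested muscle probe sets 5 had the same order, among them bt, which encodes the giant kinase projectin, up, which encodes a troponin T, and 2 of sls, which encodes the fly titin. The remaining one was TpnC4, which was dim at 9.18 to 22.0. Another sls probe set, Act87E and Act79B had other orders, and Act79B was highest on glucosamine replicate 3 and lowest on sucrose replicate 2. The same order was seen in 2 of 8 tested neuronal probe sets, 1 of 6 cardiac ones and 1 of 7 hemocyte ones. None of the 8 tested muscle probe sets passed limma's test between diets, 0 had an unadjusted p under 0.05, and their median difference was 0.19. Of the muscle markers on the array, Act88F and fln, which are typical of flight muscle, did not exceed 11.1 on any array. Most of the muscle sum came from up, bt and Act87E, and whether heart muscle or other muscle gave this signal was not tested. The part of muscle content in the spread of the calcium genes was not tested. The cac probe set 1640614_at had another order, highest on glucosamine replicate 3 and lowest on glucosamine replicate 2.

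**Figure D4:**
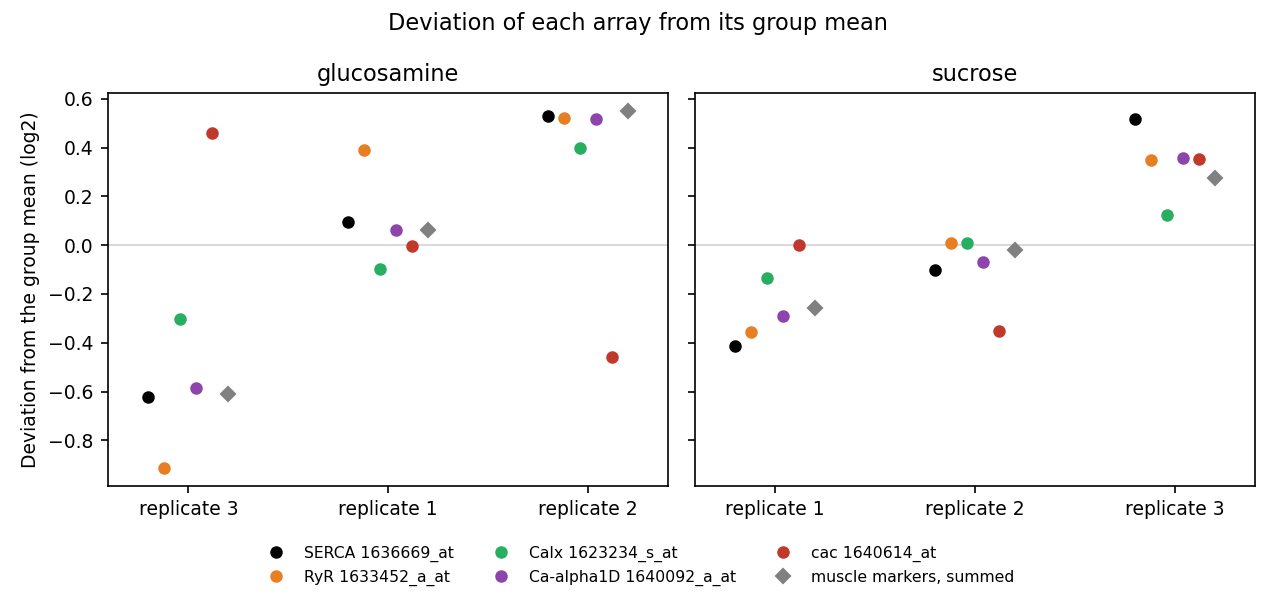
Deviation of each array from the mean of its diet group, in log2 units, for 5 calcium probe sets on the scale log2(intensity + 16) and for the log2 of the summed intensity of muscle markers (grey diamonds), with arrays placed from low to high muscle sum. RyR, SERCA 1636669_at, Ca-alpha1D and Calx follow the muscle markers in both diets, and cac lies the other way in the glucosamine arrays.

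Other genes of calcium handling were examined from 3 lists. Of 9 tested probe sets of store release and store-operated entry partners, 1 rose, none fell and 8 did not pass, with a median difference of 0.15. Plc21C, which encodes a phospholipase C that makes inositol trisphosphate, had 333.4, 261.3 and 337.8 after glucosamine and 189.9, 171.9 and 200.7 after sucrose. It rose by 0.68 ± 0.15 (SE; limma adjusted p = 0.0276), without overlap between diets. The call held in 1 of the 6 fits without an array, with adjusted p values of 0.0263 to 0.0943. The store sensor gene Stim and the entry channel gene Orai were picked here for their roles after their values were seen. Stim differed by −0.29 (limma adjusted p = 0.371), and 2 probe sets of Orai by 0.17 and 0.15 (limma adjusted p = 0.837 and 0.584). The Orai probe set 1625514_s_at had 4141 on glucosamine replicate 1 and 1182 to 1914 on the other arrays, and without that array it differed by −0.37.

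Of 16 tested probe sets of other calcium transport genes, none rose, 1 fell and 15 did not pass, with a median difference of −0.02. Trpm encodes a cation channel of the TRP family, and its probe set 1627395_a_at had 16.8, 19.4 and 18.8 after glucosamine and 32.0, 28.1 and 36.4 after sucrose. It fell by 0.49 ± 0.13 (SE; limma adjusted p = 0.0442), with no overlap but at dim intensities. The other 3 Trpm probe sets differed by −0.12, −0.12 and −0.59 and did not pass, and the call on the first was lost without any 1 of the arrays (limma adjusted p of 0.0689 to 0.129). PMCA, the calcium pump of the cell surface and also picked for its role, had 3 tested probe sets, with differences of 0.05, 0.22 and 0.28 (limma adjusted p of 0.241 to 0.919). The other 11 of the 27 probe sets of this list were too dim to be tested, among them the only one of the mitochondrial uniporter gene MCU, at 6.08 to 9.71.

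Of 13 tested probe sets of calcium sensors and their enzymes, 2 rose, none fell and 11 did not pass, with a median difference of 0.03. Both belong to calcineurin, as regulator or as subunit, the phosphatase that calcium and calmodulin switch on. The calcineurin regulator gene sra had 6032, 3861 and 4267 after glucosamine and 2783, 1740 and 2111 after sucrose, and rose by 1.09 ± 0.24 (SE; limma adjusted p = 0.0282). It passed in 13 of 19 alternatives, and in 2 of the 6 fits without an array. CanB, which encodes a regulatory B subunit of calcineurin, had 225.0, 60.7 and 58.0 against 14.7, 20.2 and 19.8. It rose by 1.70 ± 0.46 (SE; limma adjusted p = 0.0482). Glucosamine replicate 1 was far above the others in it, and without that array the difference was 1.14 and the call held, while it was lost without any other array (adjusted p of 0.0565 to 0.121). The second B subunit gene, CanB2, differed by 0.06, and the catalytic subunit genes Pp2B-14D, CanA-14F and CanA1 by −0.34, 0.25 and −0.14, all short of the threshold. These 4 genes were picked after their values were seen. Over the 3 lists 3 of 38 tested probe sets were higher and 1 was lower, where 9.52% and 8.28% of everything tested were.

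**Figure D5:**
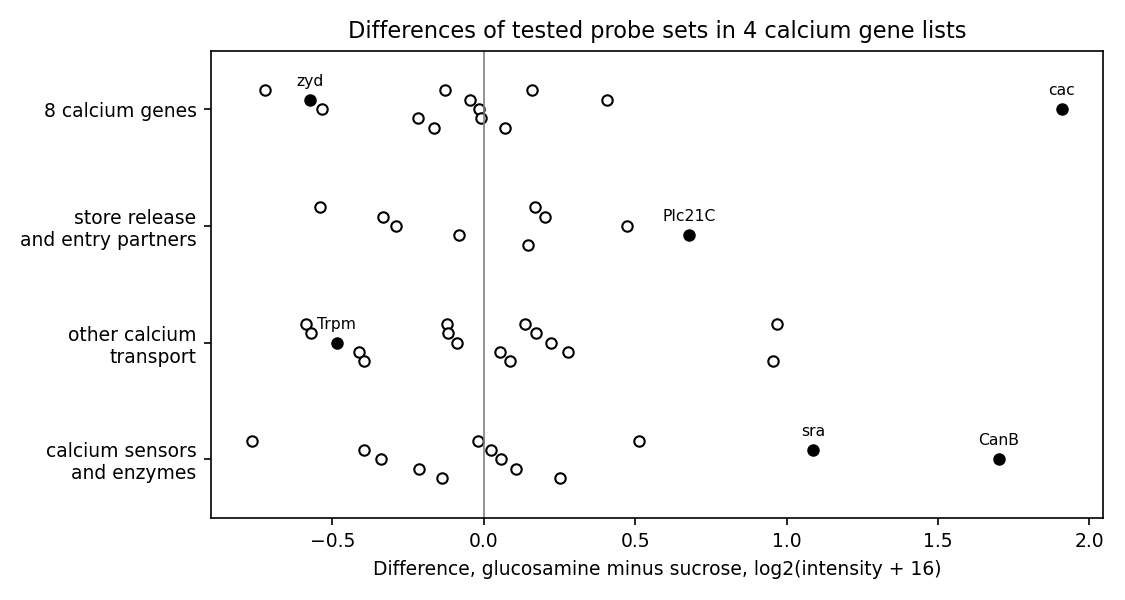
Difference of every tested probe set in 4 lists of calcium genes, as glucosamine minus sucrose of log2(intensity + 16), with filled and named points where the limma adjusted p was under 0.05. In each list most points lie between −0.6 and 0.6 and are open, and cac (1.91), CanB (1.70) and sra (1.09) are the filled points farthest to the right.

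For the brightest tested probe set of each gene, the other genes with the most similar values over the 6 arrays were sought by Pearson's r on the log2 scale, as a description only, since with 6 arrays 32 to 733 probe sets had an r over 0.9 with a given gene. Those most like RyR were tmod, which encodes the actin-capping protein tropomodulin (r = 0.998), and Tep3 (r = 0.988). Those most like SERCA were Hsc70-1 (0.990) and CG1275 (0.983), like Itpr Nepl10 (0.997) and CG7794 (0.995), and like Calx trol, which encodes the matrix proteoglycan perlecan (0.994), and Cpr66D (0.992). For zyd they were Amph, which encodes amphiphysin (0.992), and Lrpprc2 (0.990), for Ca-alpha1D SmydA-9 (0.990) and sqa (0.978), and for Ca-beta Prosbeta5R1 (0.986) and CG31195 (0.976). For cac they were RYBP and Nf-YC (0.999 and 0.998). For cac, zyd and Itpr, whose diets did not overlap, these r values include the difference between the diets.

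In the RefSeq gene table, 5 of the 8 genes overlap other genes: SERCA overlaps CG2812, Itpr overlaps Nmdar1 and CG43845, Calx overlaps CG43446 and Alp5, Ca-beta overlaps Vm32E and Boh2, and Ca-alpha1D overlaps the antisense RNA gene CR43806. No gene overlaps cac, zyd or RyR there. The probe sequences were not used here, so the part of each transcript that a probe set reads was not examined.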

How the data were processed

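Affymetrix arrays of 6 samples were analysed. For every probe set the authors deposited a linear intensity on each array. Per the labels' protocols, RNA was extracted with Trizol and a column kit and labelled with biotin by the Affymetrix protocol. How probes were summarised, corrected for background and normalized is not given in the sources used here. Because the quartiles of the arrays were close, values were used as deposited.

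Gene names came from the platform annotation, in which 13647 of 18952 probe sets had 1 symbol and 402 had several. Of the former, 13544 matched a RefSeq gene (Release 6 plus ISO1 MT) by identifier and 0 symbols changed. Controls (183) and probe sets with several symbols were left out, as were the 40% with the lowest mean, which left 11021. Each was tested on its own, because probe sets of 1 gene can disagree, on log2(intensity + 16) with lmFit and eBayes of limma 3.58.1 (R 4.3.3), two-sided. Permutation tests and figures used scipy 1.17.1 and matplotlib 3.10.9. On simulated data of 11021 probe sets, the test recovered 2% of those changed by 0.5, 46% by 1, 78% by 2 and 98% by 4 on the log2 scale, with 6 false calls. Far fewer probe sets were changed there than were called in the data, which makes the adjustment stricter. These shares are therefore not the power of the test on the data.

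Named genes were the 8 calcium genes, list members past the threshold, and the 2 genes most similar to each of the 8. Genes named outside this rule, which are single cell type markers, osk and the other calcium genes named without a call, were chosen after their values were seen. The 3 calcium lists held 50 genes, 41 of them on the array. The genes, lists and rule were chosen with earlier results of these data known. Alternatives were other normalizations, filters, pseudocounts, variance models and probe set summaries, a replicate block and each array left out.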

Additional observations from a re-analysis of the deposited data

How the results depend on the processing

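Of the alternatives, 1 was chosen after seeing the data: a fit without glucosamine replicate 3 and sucrose replicate 1. Of 19 alternatives in all, 1 used the mean of both cac probe sets in place of cac 1640614_at. The gene stayed higher in 19 and past the threshold in 18. That mean gave the lowest value, 1.16, and 1640614_at itself had 1.28 to 2.30. This probe set ran from 1.68 to 2.14 without 1 array and was 1.68 (limma adjusted p = 0.0715) without both arrays. In that fit the counts over all probe sets were 145 higher and 77 lower, and no calcium probe set passed in either direction (0 and 0). The lower call, zyd, was lost, giving a count of 0, under quantile normalization, median centring, cyclic loess, no filter, the filter on 60% (where zyd was too dim to be tested), the variance trend, array weights, the replicate block, log2(intensity + 64) and without any 1 array (0 to 0). Without 1 array the counts over all probe sets were 516 to 875 higher and 310 to 655 lower, against 1049 and 913. They were 607 and 406 with the replicate number as a block, where cac passed (adjusted p = 0.0173) and zyd did not (adjusted p = 0.0940), and 608 lower without a filter. Same-numbered arrays did not deviate together from their diet means (r of 0.02, −0.12 and −0.06), so the numbers were not taken as pairs. The sign of SERCA 1627044_s_at turned under quantile normalization (0.0419), cyclic loess (0.0934), array weights (0.0385) and without both arrays (0.15), and that of PMCA 1627784_at and Trpm 1640262_at did so without both arrays (−0.37 and 0.0365). Without 1 array, signs also turned for SERCA 1627044_s_at (−0.14 to 0.20), RyR (−0.10 to 0.62), Calx (−0.13 to 0.22), Ca-alpha1D (−0.42 to 0.13), Ca-beta 1628331_at (−0.31 to 0.14) and 1640620_at (−0.0331 to 0.00707), Orai 1625514_s_at (−0.37 to 0.53), PMCA 1627784_at (−0.20 to 0.22) and for the ratios of SERCA 1627044_s_at to 1641059_at (−0.0746 to 0.36) and of Ca-beta 1628331_at to 1640620_at (−0.29 to 0.17) and to 1638440_at (−0.18 to 0.27). The cause was not tested. Values near the array median may carry little signal over background, which was not measured. Among them are those of Ca-beta and the glucosamine values of zyd and Trpm 1627395_a_at.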
